A study of Rattus norvegicus with 10 samples.

Results

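The genes described here are 10 genes of alveolar type 2 cells: the surfactant protein genes Sftpa1, Sftpb, Sftpc and Sftpd, the lipid and ion handling genes Abca3, Lpcat1 and Slc34a2, the processing and lamellar body genes Napsa and Lamp3, and the transcription factor gene Etv5. They were taken by symbol from a deposited table of 22250 rat genes, and all 10 were present once and passed the filter on low counts. The study sequenced messenger RNA of rat lung in 10 libraries, and their titles form a MOD group of 5 and an XBS group of 5. According to the series text, rats received lipopolysaccharide and ovalbumin to produce an asthma with neutrophils, and a formula abbreviated SP was the treatment of interest; the labels expand neither group name, tie neither to SP and give no strain, age, dose or time, so the groups are compared as XBS against MOD. The labels also list 16HBE, a human bronchial cell line, for every library, whereas the table holds rat gene identifiers and Sftpc, which marks type 2 cells, was its gene of rank 2 by level.

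Surfactant is a film of phospholipid and protein that lowers surface tension in the alveoli, and it is made by the cuboidal type 2 cells. The hydrophobic proteins SP-B and SP-C help the lipid spread at the air surface, while SP-A and SP-D are collectins, lectins with a collagen-like stem that bind microbes and take part in the turnover of the lipid. Lipid and hydrophobic proteins are packed in lamellar bodies before secretion. Type 2 cells also give rise to type 1 cells, the flat cells of gas exchange.

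Promoters are shown for 3 members: Sftpa1 and Sftpb, which were among the most abundant transcripts of these libraries, and Etv5, which was the least abundant member and followed the others least closely. Each is the 250 bases before the RefSeq start of the gene in GRCr8, on the strand of the gene; of the 10 members 7 matched that table (Sftpc, Sftpd and Napsa had no entry). Capitals mark CTCAAG (core of sites of the lung factor NKX2-1), TGTTTGC (core of sites of FOXA factors), TATAA and CCAAT, each searched on both strands.
Sftpa1, chr16:17042014-17042263, plus strand: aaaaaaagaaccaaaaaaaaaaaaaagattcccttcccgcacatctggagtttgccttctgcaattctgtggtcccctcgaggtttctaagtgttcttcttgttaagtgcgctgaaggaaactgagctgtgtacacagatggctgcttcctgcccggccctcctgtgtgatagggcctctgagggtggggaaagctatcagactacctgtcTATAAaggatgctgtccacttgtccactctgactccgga
Sftpb, chr4:105917338-105917587, plus strand: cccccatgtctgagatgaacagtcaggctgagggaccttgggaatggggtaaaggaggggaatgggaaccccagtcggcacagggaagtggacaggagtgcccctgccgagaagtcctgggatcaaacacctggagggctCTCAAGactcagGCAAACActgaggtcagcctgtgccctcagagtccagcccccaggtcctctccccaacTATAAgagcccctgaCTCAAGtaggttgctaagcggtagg
Etv5, chr11:92113013-92113262, plus strand: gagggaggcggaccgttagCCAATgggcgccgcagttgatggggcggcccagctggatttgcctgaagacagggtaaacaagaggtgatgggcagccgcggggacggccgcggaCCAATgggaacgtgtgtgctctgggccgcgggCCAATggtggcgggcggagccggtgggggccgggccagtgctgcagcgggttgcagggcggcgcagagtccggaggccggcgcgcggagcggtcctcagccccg
The Sftpb window held CTCAAG at 110 and 25 bases before the start, TGTTTGC on the opposite strand at 98 and TATAA at 40. The Sftpa1 window held TATAA at 39 bases before the start and none of the other motifs. The Etv5 window held CCAAT 3 times and none of the others. Of all 33469 RefSeq windows of this length, 13.3% held CTCAAG, 4.16% TGTTTGC, 24.0% TATAA and 34.0% CCAAT. The windows of Abca3, Lamp3, Slc34a2 and Lpcat1 held none of the 4 motifs. The GC content was 48.4% for Sftpa1, 58.8% for Sftpb and 72.4% for Etv5, with a median of 51.2% over all windows, and the ratio of observed to expected CpG was 0.342, 0.139 and 0.889 (median 0.383). These matches are letters in a window and not measured binding.

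The levels of the 10 genes spanned more than 2 orders of magnitude per length and kept nearly the same order in every library. Levels are given here as the deposited FPKM, the read count divided by the length of the gene and by the total reads of the library. Sftpc had a mean of 12796 ± 1527 FPKM in MOD and 11741 ± 2941 FPKM in XBS (SD, n = 5) and ranked at position 2 of the 22250 genes by its mean over the 10 libraries. Sftpa1 followed at rank 10, with 4349 ± 413 FPKM in MOD and 4952 ± 1203 FPKM in XBS (SD, n = 5), and Sftpb at rank 19, with 1783 ± 87.3 and 1743 ± 347 FPKM. Slc34a2 stood at 521 ± 71.2 and 513 ± 130 FPKM (SD, n = 5; rank 108) and Sftpd, the other collectin, at 320 ± 45.8 and 291 ± 66.5 FPKM (rank 191). Lamp3, Napsa, Lpcat1 and Abca3 had mean levels of 266, 234, 150 and 101 FPKM over the 10 libraries. Etv5 stood lowest (rank 3880), between 20.5 and 28.3 FPKM in MOD and between 17.6 and 29.4 FPKM in XBS, with a mean of 24.5 FPKM over the 10 libraries.

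Between neighbours in this order, Sftpc exceeded Sftpa1 2.64-fold, Sftpa1 exceeded Sftpb 2.64-fold, and Sftpb exceeded Slc34a2 3.41-fold, each in 10 of 10 libraries. Sftpd and Lamp3 differed 1.15-fold, with Sftpd higher in 9 of 10 libraries, and Lamp3 and Napsa 1.14-fold, with Lamp3 higher in 8 of 10, so the ranges of these 3 genes overlapped. Every other neighbouring pair kept its order in 10 of 10 libraries.

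**Figure D1:**
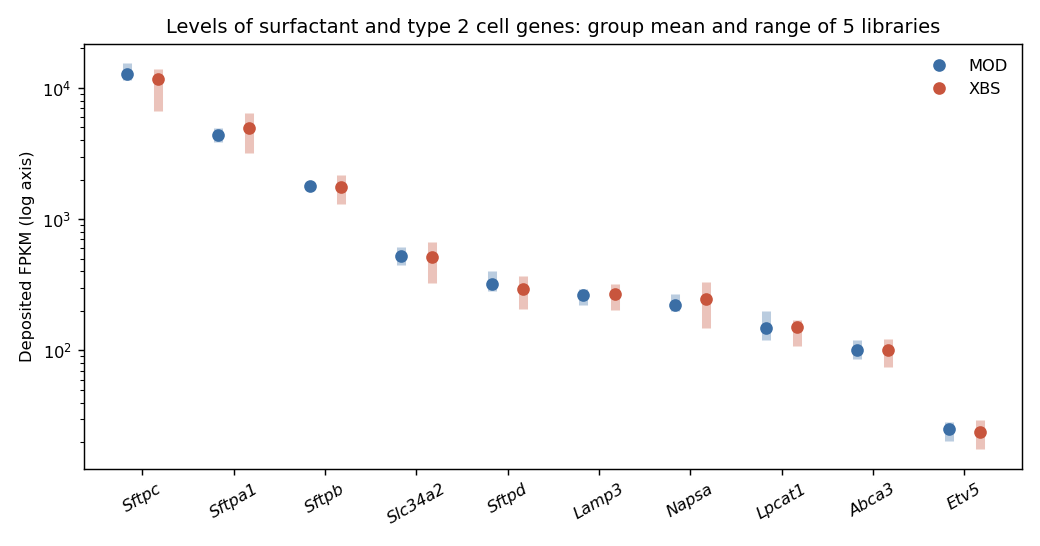
Deposited FPKM (log axis) of the 10 genes in MOD (blue) and XBS (red); points are means and bars the range of 5 libraries. The genes fall from Sftpc, at means of 12796 and 11741 FPKM, to Etv5, at a mean of 24.5 FPKM over all libraries, and the MOD and XBS bars of every gene overlap.

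The comparison of XBS with MOD asked which genes of the lung differed between the groups, and no surfactant or type 2 gene passed the test in either direction. Of the 10 genes, 0 rose and 0 fell by edgeR (adjusted p under 0.05 over all 14320 genes tested), where 0.0768% of all genes tested passed. At an unadjusted p under 0.05, 0 of the 10 passed by edgeR, where 13.2% of all genes tested did. DESeq2 also called 0 of the 10 (2.58% of all genes it adjusted), and limma voom with sample weights 0 (0.461%). The MOD and XBS libraries overlapped for each of the 10 genes; they did not overlap for 2.74% of all genes tested. The log2 fold change was negative for 8 of the 10 genes, with a median of -0.029, and negative for 48.1% of all genes tested, with a median of 0.010. Every 95% interval of a fold change lay between 0.675 and 1.47, so differences of up to about these sizes could not be told from none.

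Sftpc (ENSRNOG00000011177; chromosome 15 from 52211544 to 52214616 as the table gives it, on a build not given in the sources) encodes the hydrophobic protein that is made only by type 2 cells. Its level in CPM, the share of a library's reads scaled by its TMM factor, was 10863, 11733, 11400, 10578 and 14375 in MOD 1 to 5 and 12265, 10907, 13066, 11147 and 5902 in XBS 1 to 5. XBS 1 to 4 thus lay inside the MOD range, and XBS 5 lay below every other library. The log2 fold change was -0.15 ± 0.19 (SE; 95% interval -0.57 to 0.28, edgeR adjusted p = 0.768). Sftpb (ENSRNOG00000010761; chromosome 4 from 100166863 to 100175938) encodes the protein that is needed for lamellar bodies to form. It varied little in MOD, at 2829, 2675, 2886, 2703 and 2646 CPM, and more in XBS, at 3292, 2278, 2868, 2855 and 1926 CPM. The XBS values lay on both sides of the narrow MOD range, and the log2 fold change was -0.06 ± 0.13 (SE; 95% interval -0.35 to 0.24, edgeR adjusted p = 0.876).

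The collectin genes Sftpa1 (ENSRNOG00000011438; from 18716019 to 18719403) and Sftpd (ENSRNOG00000056001; from 18745458 to 18766174) are neighbours on chromosome 16, 26055 bases apart as the table gives them. Sftpa1 stood at 8205, 7898, 7498, 7186 and 9264 CPM in MOD and 9552, 8061, 12143, 9551 and 5682 CPM in XBS. XBS 3 was its highest library and XBS 5 its lowest, and the log2 fold change was 0.17 ± 0.18 (SE; 95% interval -0.22 to 0.55, edgeR adjusted p = 0.693). Sftpd stood at 1123, 1120, 1028, 1119 and 1489 CPM in MOD and 1063, 739, 1378, 1226 and 875 CPM in XBS. MOD 5 was its highest library and XBS 2 its lowest, and the log2 fold change was -0.15 ± 0.17 (SE; 95% interval -0.52 to 0.21, edgeR adjusted p = 0.704).

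The genes of lipid and ion handling had fold changes near 1. Abca3, the transporter that moves phospholipid into lamellar bodies, averaged 625 ± 86.9 CPM in MOD against 625 ± 133 CPM in XBS (SD, n = 5), with a log2 fold change whose 95% interval ran from -0.33 to 0.33 (edgeR adjusted p = 0.999). Lpcat1, an acyltransferase that remakes saturated phosphatidylcholine, ran from 442 to 735 CPM in MOD and from 379 to 635 CPM in XBS. It was the only member with a wider log2 spread in MOD (SD 0.34) than in XBS (SD 0.30), and its 95% interval ran from -0.40 to 0.38 (edgeR adjusted p = 0.989). Slc34a2, a sodium-dependent phosphate transporter of the apical membrane, ran from 1952 to 2665 CPM in MOD and from 1354 to 2839 CPM in XBS (95% interval -0.44 to 0.35, edgeR adjusted p = 0.932).

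Napsa encodes napsin A, a protease that trims the SP-B precursor, and stood at 366, 403, 419, 380 and 505 CPM in MOD and 543, 377, 631, 430 and 267 CPM in XBS. Its highest and lowest libraries, XBS 3 and XBS 5, were both XBS libraries, and the log2 fold change was 0.12 ± 0.20 (SE; 95% interval -0.32 to 0.55, edgeR adjusted p = 0.823). Lamp3, a membrane protein of lamellar bodies, ran from 431 to 590 CPM in MOD and from 392 to 645 CPM in XBS (95% interval -0.34 to 0.31, edgeR adjusted p = 0.973). Etv5, an ETS factor that acts downstream of fibroblast growth factor receptors in type 2 cells, stood at 109, 91.9, 109, 98.6 and 81.9 CPM in MOD and 113, 110, 100.5, 74.7 and 66.7 CPM in XBS. Its XBS values fell on both sides of the MOD range, and the 95% interval ran from -0.41 to 0.25 (edgeR adjusted p = 0.839).

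**Figure D2:**
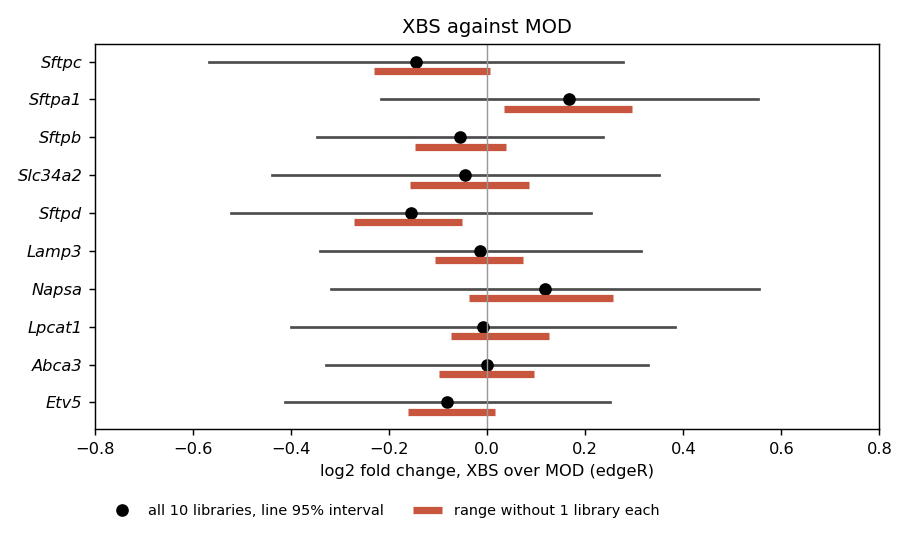
Log2 fold change of XBS over MOD by edgeR for the 10 genes (points) with 95% intervals (black lines) and the range over the 10 fits without 1 library each (red bars). Every interval includes 0, and the red bars of Sftpa1 and Sftpd alone stay on one side of 0.

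Most of the variation of these genes lay between libraries of the same group, and the genes moved together. XBS 5 was below every MOD library for 10 of the 10 genes and the lowest XBS library for 8 of them. Against the mean of the other 4 XBS libraries it was 2.01-fold lower for Sftpc, 1.85-fold for Napsa, 1.76-fold for Slc34a2, 1.73-fold for Sftpa1 and 1.26-fold for Sftpd, the smallest gap. The summed CPM of the 4 surfactant protein genes was 14384 in XBS 5, from 21985 to 29455 for XBS 1 to 4, and from 21586 to 27774 for MOD. The mean over the 10 genes of log2 CPM centred on each gene was -0.54 in XBS 5, 0.31 in XBS 3, 0.23 in MOD 5 and 0.22 in XBS 1, with the remaining 6 libraries from -0.13 to 0.04. In bulk tissue, fewer type 2 cells and less RNA per type 2 cell cannot be told apart.

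Leaving out XBS 5 turned the sign of 7 of the 10 log2 fold changes and left 9 of them positive, from -0.09 for Sftpd to 0.29 for Sftpa1. None of the 10 passed the threshold in that fit (smallest edgeR adjusted p = 0.348). Genes of some other cells also set XBS 5 apart. The fibroblast list, of which 9 of 10 genes were tested and none had 0 counts in all libraries, summed to 3769 to 6638 CPM across MOD; its XBS sums started at 4644 CPM and reached 9830 CPM, in XBS 5. Its collagen gene Col3a1 stood at 4583 CPM in XBS 5 and between 1875 and 3195 CPM elsewhere. Col1a1 (2772 CPM), Dcn, Lum and Inmt were also highest in XBS 5. The list did not rise there as a whole: Tcf21 was at its lowest in XBS 5 (135 CPM), and Pdgfra, Npnt and Fn1 were not highest there. The type 1 list (13 of 13 genes tested, none at 0) was lowest in XBS 5 as well, at a mean centred log2 CPM of -0.49 against -0.23 to 0.24 in the other libraries. The club list scored highest in XBS 5 (1.32), with MOD 4 next (1.05), as a mean that weighs each gene alike. Scgb3a1, Cyp2f4 and Muc5b of this list were highest in XBS 5. Its most abundant gene Scgb1a1 stood at 7003 CPM there, inside its MOD range of 6666 to 10840 CPM, and Cyp4b1 was at its lowest (219 CPM). The ciliated list scored 0.97 in XBS 5 and 0.99 in XBS 4, so it did not set XBS 5 apart. The part of these cell types in the low values of XBS 5 was not tested.

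**Figure D3:**
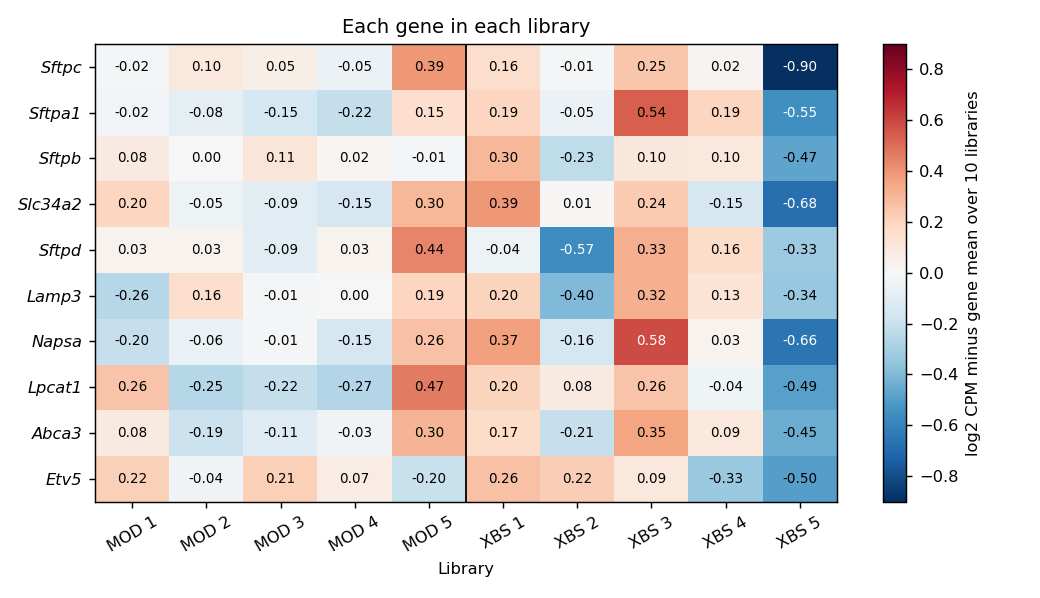
Log2 CPM of each gene minus its mean over the 10 libraries (colour and printed value), with MOD libraries left and XBS libraries right of the line. The column of XBS 5 is blue for every gene, down to -0.90 for Sftpc, and XBS 3 is red for every gene.

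The spread within XBS was larger than within MOD for 9 of the 10 genes (90.0%), compared with 63.7% of all genes tested. The median SD of log2 CPM over the 10 genes was 0.18 in MOD and 0.35 in XBS, and 0.24 in XBS without XBS 5. The same medians were 0.13, 0.16 and 0.15 over the 4688 genes with a mean of at least 50 CPM, as all 10 members have, and 0.19, 0.23 and 0.22 over all genes tested. Without XBS 5 the spread was still larger in XBS for 8 of the 10 genes (80.0%, against 59.9% of all genes tested), but for Sftpc it went from 0.46 to 0.12, below the 0.17 of MOD. The difference in spread between the groups was not tested.

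Across the 10 libraries, Pearson's r of log2 CPM was positive for 44 of the 45 pairs of members, with a median of 0.71 (Spearman's rho, median 0.59). The closest pairs were Sftpa1 with Napsa (r = 0.93), Sftpa1 with Abca3 (0.89), and Sftpc with Slc34a2 (0.88). Etv5 stood apart, with a median r of 0.36 with the other 9 genes and -0.14 with Sftpd. The relations rest in part on the libraries at the ends: without XBS 5 and XBS 3, the 2 farthest from the median, the median r over the pairs was 0.48 (8 libraries), 37 of 45 pairs were positive, and the median r of Etv5 with the others was -0.35. Centred on the mean of each group, the median r was 0.75. All these values share the libraries, their depth and their cell composition, and are descriptions without a test.

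**Figure D4:**
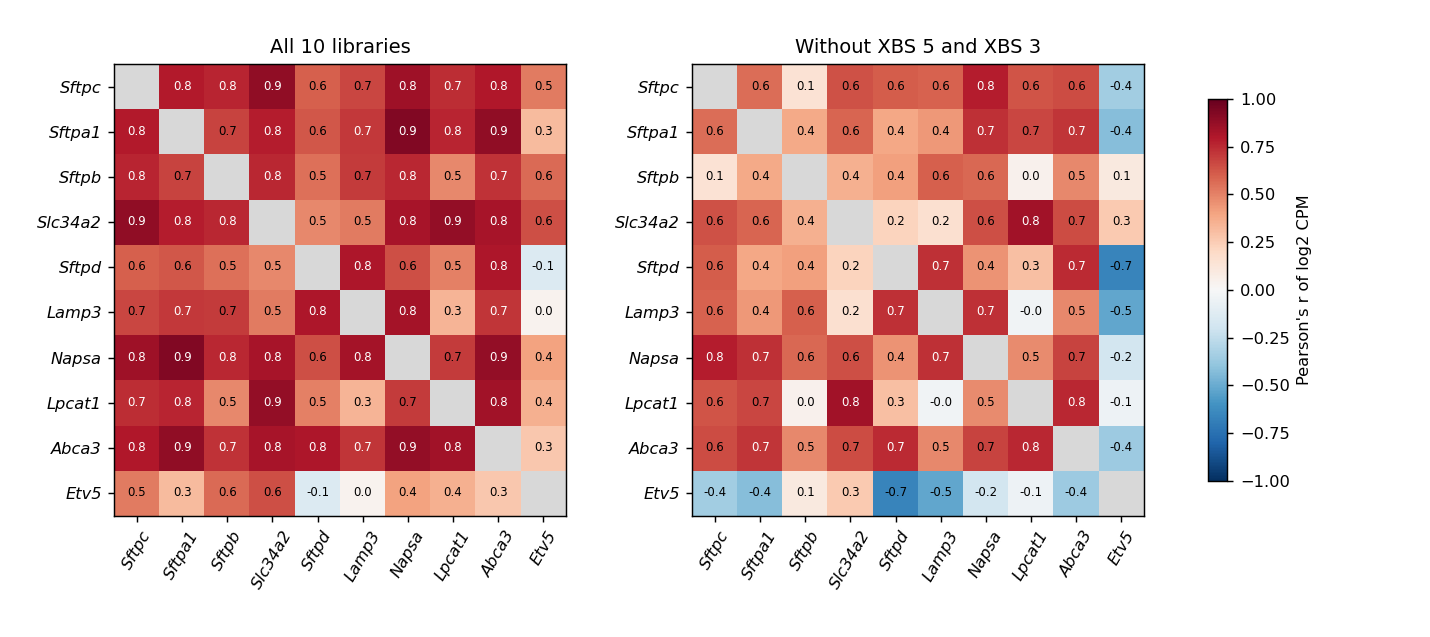
Pearson's r of log2 CPM between pairs of the 10 genes over all 10 libraries (left) and over the 8 libraries without XBS 5 and XBS 3 (right). Left, 44 of 45 pairs are positive; right, 37 of 45 are, and most of the negative values are in the row of Etv5.

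Of the other 14310 genes tested, the 5 whose log2 CPM was most like the mean of the 10 genes were Lyz2 (r = 0.96, rho = 0.87), Slc24a4 (r = 0.96, rho = 0.84), Cpm (r = 0.96, rho = 0.88), Dram1 (r = 0.95, rho = 0.90) and Pkib (r = 0.95, rho = 0.89), over 10 libraries. Without XBS 5 and XBS 3 their r ranged from 0.80 for Pkib to 0.92 for Cpm. Lyz2 encodes a lysozyme of type 2 cells and macrophages and was the most abundant gene of the table, with 20802 ± 3172 CPM in MOD against 22981 ± 7699 CPM in XBS (SD, n = 5); near-identical lysozyme genes may share its reads. It was lowest in XBS 5 (12460 CPM) and highest in XBS 3 (32840 CPM), as Sftpa1 was. The 5 most opposed genes were ENSRNOG00000000885, which has no symbol in the table, Pam, Eif4g3, Il11ra1 and Fam92a, with r from -0.91 to -0.89. All 10 were picked as the extremes of the whole table, so their r is high or low by choice.

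The proportions among the members were compared as log2 ratios within a library, for all 45 pairs, an addition made after the values were seen. The ratio of Sftpa1 to Sftpc in CPM was 0.755, 0.673, 0.658, 0.679 and 0.645 in MOD and 0.779, 0.739, 0.929, 0.857 and 0.963 in XBS. The log2 ratio was 0.32 higher in XBS, with 1 overlap of XBS 2 and MOD 1 (two-sided exact permutation p = 0.0159, adjusted p = 0.714 over 45 pairs). The ratio of Sftpc to Napsa was 0.25 lower in XBS on that scale (p = 0.0317 by the exact permutation test, adjusted p = 0.714). These were the 2 pairs with an unadjusted p under 0.05, and 0 of 45 passed after adjustment; the smallest p that 10 libraries can give is 0.00794.

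Genes that control type 2 cells were read from lists. Of 17 tested transcription factors 0 rose, 1 fell and 16 did not pass by edgeR, with a median log2 fold change of -0.13. At an unadjusted p under 0.05, 4 passed by edgeR, where 13.2% of all genes tested did. The one that fell was Klf5, a Kruppel-like factor of lung epithelium, at 111, 97.2, 100.3, 99.9 and 103.8 CPM in MOD and 65.0, 62.4, 70.0, 74.0 and 63.8 CPM in XBS. The groups did not overlap (1.53-fold lower, edgeR adjusted p = 0.00714), and the values of Klf5 had an r of 0.22 with the mean of the 10 members. Klf5 passed in each of the 10 fits without 1 library. It did not pass without XBS 2 and XBS 3 (edgeR adjusted p = 0.0715) or without MOD 4 and XBS 5 (0.0836). Its log2 fold change was -0.60 in each of these smaller fits, against -0.61 with all 10 libraries. Foxm1, a factor of dividing cells, averaged 8.84 ± 1.64 CPM in MOD against 14.7 ± 1.38 CPM in XBS (SD, n = 5, edgeR adjusted p = 0.0858, and 0.0455 without MOD 1). By limma voom with sample weights its adjusted p was 0.0336. DESeq2 called 3 of these factors: Foxm1 as higher (adjusted p = 0.00039), and Klf5 and Cebpd as lower (2.58% of all genes it adjusted were called). For the same 3 factors the groups did not overlap, as for 2.74% of all genes tested. These shares over all genes also stand beside the counts of the lists that follow. Nkx2-1, Cebpa and Cebpd were singled out after their values were seen. Nkx2-1, the master factor of lung epithelium, averaged 299 ± 64.9 CPM in MOD against 338 ± 77.8 CPM in XBS (SD, n = 5, edgeR adjusted p = 0.697). Cebpa averaged 120 ± 19.4 and 119 ± 25.7 CPM (SD, n = 5, edgeR adjusted p = 0.996) and had an r of 0.86 with the member mean. Cebpd, a related factor that responds to glucocorticoids and inflammation, averaged 160 ± 41.9 and 85.6 ± 15.7 CPM (SD, n = 5, edgeR adjusted p = 0.0898), with an r of -0.16.

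In the list of fibroblast growth factor and ETS signalling, 0 of 18 tested genes rose and 0 fell by edgeR (2 at an unadjusted p under 0.05, 1 by DESeq2). The 2 of smallest p were Dusp6, a phosphatase that restrains ERK, at 167 to 230 CPM across MOD and 137 to 175 CPM across XBS (edgeR adjusted p = 0.204, DESeq2 0.0486), and Spred2, another inhibitor of the pathway (1.39-fold lower, edgeR adjusted p = 0.351). The median log2 fold change of the list was -0.06.

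Enzymes of lipid synthesis and turnover gave 0 that rose and 0 that fell of 28 tested by edgeR (1 at an unadjusted p under 0.05, 0 by DESeq2), with a median log2 fold change of 0.01. The 2 of smallest p were Pnpla2, a lipase, at 1.70 ± 0.37 and 1.19 ± 0.11 CPM (SD, n = 5; edgeR adjusted p = 0.376), and Prdx6, a peroxiredoxin with phospholipase activity, at 842 ± 134 and 721 ± 40.8 CPM (SD, n = 5; edgeR adjusted p = 0.403). Of 23 tested genes of lamellar bodies and secretion 0 rose and 0 fell by edgeR (3 at an unadjusted p under 0.05, 1 by DESeq2). The gene of smallest p was Adgrf5, a receptor that limits the surfactant pool and is also made by endothelium. It stood at 1249, 1669, 1462, 1660 and 1077 CPM in MOD and 794, 944, 1133, 1079 and 1003 CPM in XBS. The XBS 3 and XBS 4 values overlapped with MOD 5 (1.44-fold lower, edgeR adjusted p = 0.175, DESeq2 0.0187). Vamp2, a protein of vesicle fusion, was 1.16-fold lower (edgeR adjusted p = 0.356).

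Of 14 tested genes of surfactant clearance by macrophages 12 had a positive fold change, as had 7425 of all 14320 genes tested. By edgeR 0 rose and 0 fell, and 5 had an unadjusted p under 0.05 (13.2% of all genes tested). DESeq2 called 1, Lipa (2.58% of all genes it adjusted were called). The median log2 fold change of the list was 0.28. Spi1, the factor PU.1 of myeloid cells, averaged 74.5 ± 7.07 CPM in MOD against 97.8 ± 16.0 CPM in XBS (SD, n = 5; edgeR adjusted p = 0.209). Lipa, the acid lipase of lysosomes, stood at 162, 146, 138, 150 and 152 CPM in MOD and 228, 182, 242, 163 and 168 CPM in XBS. The lowest XBS value, in XBS 4, was just above MOD 1 (edgeR adjusted p = 0.209, DESeq2 0.0497). In the list of alveolar macrophage markers, 8 of 12 genes were tested, none had 0 counts in all libraries, and the sums ran from 1048 to 1175 CPM in MOD and from 920 to 1271 CPM in XBS, with Cd9 the most abundant and the only one of the 8 with a negative fold change. The other 7 had positive ones, the median log2 fold change of the list was 0.18, and its score (mean centred log2 CPM) ran from -0.36 to 0.12 in MOD and from -0.07 to 0.51 in XBS. Of 11 tested neutrophil markers (12 listed, none at 0 in all libraries) 10 had a positive fold change, with a median of 0.42; 0 rose and 0 fell by edgeR (1 at an unadjusted p under 0.05, 0 by DESeq2). Their sums ran from 349 to 582 CPM across MOD, and their XBS sums started at 383 CPM and reached 966 CPM, in XBS 2. Pparg and Fabp4 stand in both the clearance list and the macrophage list, and Spi1, Csf2ra and Csf2rb are general myeloid genes. The part of either cell type in the values of the clearance list was not tested.

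Further type 2 markers outside the 10 genes gave 0 that rose and 0 that fell of 14 tested by edgeR (1 at an unadjusted p under 0.05, 0 by DESeq2), with a median log2 fold change of 0.11. Slc6a14, an amino acid transporter, averaged 216 ± 28.4 CPM in MOD against 165 ± 35.1 CPM in XBS (SD, n = 5; edgeR adjusted p = 0.298), and the potassium channel gene Kcnj15 73.6 ± 7.81 and 53.0 ± 20.4 CPM (SD, n = 5; edgeR adjusted p = 0.435). The list scored lowest in XBS 5 (-0.42 as mean centred log2 CPM) and highest in XBS 3 (0.35), as the 10 genes did.

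Type 1 genes are set beside the type 2 genes because both line the alveolus. All 13 tested type 1 genes had a negative fold change, where 48.1% of all genes tested had one. Their median was -0.26 on the log2 scale against -0.029 for the 10 type 2 genes. Of the 13, 0 rose and 0 fell by edgeR, and 5 had an unadjusted p under 0.05 (13.2% of all genes tested). DESeq2 called 3 as lower (2.58% of all genes it adjusted were called). The most abundant type 1 gene, Ager, a receptor of the type 1 cell membrane, ran from 1690 to 2300 CPM in MOD and from 1093 to 1784 CPM in XBS (edgeR adjusted p = 0.233). The log2 ratio of Ager to Sftpc was lower in XBS by 0.25, with overlapping groups (exact permutation p = 0.190, adjusted p = 0.667 over 7 ratios). Of the ratios of 7 markers of other cells to Sftpc (Ager, Scgb1a1, Tppp3, Cd9, S100a9, Plvap and Col3a1), 0 had an exact permutation p under 0.05. Only the ratio of Ager sets a type 1 gene beside a type 2 gene. The type 1 genes that DESeq2 called lower, Rtkn2 (adjusted p = 0.0043), Akap5 (0.0075) and Clic5 (0.010), were not put in a ratio. These ratios thus do not decide whether type 1 and type 2 genes changed differently. Endothelial and general epithelial markers also had mostly negative fold changes, while the macrophage and neutrophil markers had mostly positive ones. The libraries differed, however. The mean centred log2 CPM was lowest in XBS 5 for the type 1 list (-0.49), in XBS 1 for the endothelial list (-0.52) and in XBS 2 for the epithelial list (-0.41). Of 8 tested endothelial markers (11 listed, Cldn5 at 0 counts in all libraries) 7 had a negative fold change, with a median of -0.34; 0 rose and 0 fell by edgeR (4 at an unadjusted p under 0.05, 0 by DESeq2), and the sums ran from 3693 to 5214 CPM across MOD and from 2650 to 4021 CPM across XBS. Of 10 general epithelial markers (none at 0) 9 had a negative fold change, with a median of -0.21; 0 rose and 0 fell by edgeR (3 at an unadjusted p under 0.05, 0 by DESeq2), and the sums ran from 1154 to 1330 CPM across MOD and from 937 to 1250 CPM across XBS. Endothelium also makes Cav1 of the type 1 list. The part of these cells in the type 1 values was not tested. In the transitional epithelial list 9 of 12 genes had a negative fold change, with a median of -0.27. By edgeR 0 rose and 0 fell (5 at an unadjusted p under 0.05, 3 by DESeq2). The lists share genes and are not separate evidence. Krt8 and Krt18 also stand in the general epithelial list, and Cdkn1a in the list of genes induced by glucocorticoids.

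Club cells also make Sftpa1, Sftpb and Sftpd, and their genes varied in another way. The club list (8 of 10 genes tested, none at 0) summed to between 8427 and 12600 CPM in MOD and between 2671 and 9466 CPM in XBS. Scgb1a1, their main secretory protein gene, stood at 1934 CPM in XBS 2 and 2158 CPM in XBS 3, with the remaining 8 libraries from 6666 to 10840 CPM. XBS 3 was thus low in Scgb1a1 and the highest library of Sftpa1, and XBS 5 (7003 CPM of Scgb1a1) was the lowest. Scgb1a1 had an r of -0.18 with the mean of the 10 members over the 10 libraries. In a fit without XBS 2 and XBS 3, added once the values were known, 0 of the 10 type 2 genes passed by edgeR, with log2 fold changes from -0.27 for Sftpc to 0.04 for Sftpa1. The part of club cells in the values of Sftpa1, Sftpb and Sftpd was not tested. Cyp4b1 of the club list fell 1.58-fold (log2 fold change -0.66, edgeR adjusted p = 0.0104). It stood at 258 and 225 CPM in XBS 2 and XBS 3, and at 273, 272 and 219 CPM in XBS 1, 4 and 5. Cyp4b1 did not pass without XBS 2 and XBS 3 (log2 fold change -0.63, edgeR adjusted p = 0.0715) or without MOD 4 and XBS 5 (-0.64, 0.078). The size of its fold change thus stayed close to that of the main fit in these fits with fewer libraries.

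Collectins and other lung lectins gave 0 that rose and 0 that fell of 7 tested by edgeR (1 at an unadjusted p under 0.05, 0 by DESeq2), with a median log2 fold change of 0.15. Receptors and partners of the surfactant proteins gave 0 that rose and 0 that fell of 9 (4 at an unadjusted p under 0.05, and Adgrf5 by DESeq2), with a median of -0.06. The members Sftpa1 and Sftpd are among the 7 lectin genes, and Adgrf5 also stands in the lamellar body list, so these lists are not separate evidence.

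Glucocorticoids promote surfactant synthesis in the developing lung, and genes that they induce were read for that reason; earlier results of these libraries had already shown the direction of this list, so it is no independent evidence. Of 15 tested genes 14 had a negative fold change, with a median of -0.76 on the log2 scale. By edgeR 0 rose, 3 fell (Per1, Klf15 and Nfkbia) and 12 did not pass. At an unadjusted p under 0.05, 11 passed by edgeR, all lower (13.2% of all genes tested passed). DESeq2 called 9 as lower and 0 as higher (2.58% of all genes it adjusted). The groups did not overlap for 8 of the 15 genes (2.74% of all genes tested). Per1, a clock gene, fell 2.14-fold (edgeR adjusted p = 0.00455), Klf15 1.79-fold (0.00455) and Nfkbia 1.79-fold (0.0445). Without MOD 4 and XBS 5, Per1 and Klf15 did not pass (edgeR adjusted p = 0.0645 for each). Their log2 fold changes were -1.07 and -0.77 in that fit, against -1.10 and -0.84 with all libraries. Nfkbia lost its call in 7 of the 10 fits without 1 library (MOD 2, 3 or 4, or XBS 1, 2, 3 or 4; adjusted p up to 0.167). Per1 had an r of 0.012 with the mean of the 10 type 2 genes, Klf15 of 0.25 and Nfkbia of -0.19. The 10 type 2 genes had a median of -0.029 in the same fit.

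**Figure D5:**
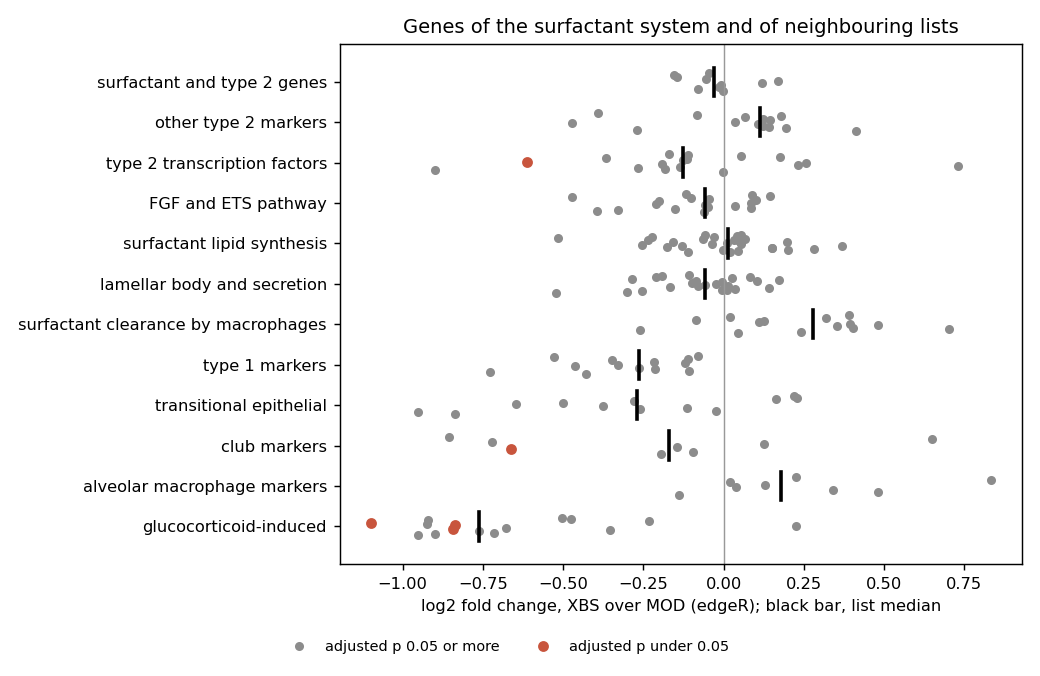
Log2 fold change of XBS over MOD by edgeR for every tested gene of 12 lists (points; red, adjusted p under 0.05) with the median of each list (black bars). The 10 surfactant and type 2 genes lie between -0.15 and 0.17, while the glucocorticoid-induced list has its median at -0.76.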

How the data were processed

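Messenger RNA was sequenced from rat lung in 10 libraries (5 MOD, 5 XBS), grouped and numbered by title. Per the labels' protocols, RNA was isolated with Trizol and messenger RNA purified; the sources used here name no aligner, counter, annotation or rat build, and the submitters' processing notes name human and mouse builds. Per the file headers, the authors deposited read counts, not normalized, with 11998979 to 15518929 per library, and FPKM values, which equalled count per length and total (largest relative deviation 8.82e-08). The deposited gene length was used for levels per kilobase. No pair of libraries of 1 group agreed within counting error (chi-square over degrees of freedom at least 9.46). The labels do not say that they came from separate animals, so p-values measure the spread between libraries, which may be technical.

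Counts were filtered with filterByExpr (minimum count 10, total 15), which left 14320 genes, given TMM factors and compared by the quasi-likelihood test of edgeR 4.0.16 (robust glmQLFit and glmQLFTest, R 4.3.3), with Benjamini-Hochberg adjustment over all genes tested. The lowest count of a member was 930. Log2 CPM used a prior count of 2. Log2 ratios were compared by exact two-sided permutation tests (scipy 1.17.1). Named genes were the 10 members, genes of lists that passed, the 2 of smallest p in 6 lists of the surfactant system, the most abundant marker of 7 other cell types, and the 5 most alike and 5 most opposed genes. The members and lists were chosen with earlier results of these data known. The edgeR script was tested on simulated data. Alternatives were DESeq2 1.42.0, limma 3.58.1 voom, RLE and upper quartile scaling, no filter, at least 1 CPM in 5 libraries, the replicate number as a block, and leaving out each library; other exclusions and the ratios were added after seeing the data.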

Additional observations from a re-analysis of the deposited data

Results flagged for a closer look

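Of 92 groups of 5 libraries checked (46 named genes in MOD and XBS), 6 held a library set far from the other 4 by Dixon's test, and chance gives about 1 in 20. Sftpd in MOD stood at 1489 CPM in MOD 5, against 1028 to 1123 CPM in the other 4. MOD 5 was also the highest library for Sftpc and Lpcat1. Foxm1 was low in XBS 5 among the XBS libraries, at 12.3 CPM against 14.9 to 15.8 CPM. Tppp3, a gene of ciliated cells, was low in MOD 5 among the MOD libraries, at 362.7 CPM against 482 to 507 CPM. The ciliated list as a whole was not low there. Its mean centred log2 CPM was 0.53 in MOD 5, within a MOD range of -0.14 to 0.54, and Ccdc113, Dnah5, Cfap43 and Ccdc39 had their highest MOD value in MOD 5. S100a9, a neutrophil gene, was high in MOD 4, at 201 CPM against 89.9 to 122 CPM, and in XBS 2, at 377 CPM against 113 to 166 CPM. Il11ra1 was high in XBS 5, at 80.3 CPM against 53.7 to 61.4 CPM. It was picked for opposing the mean of the members, which was lowest in XBS 5. Its flag thus follows in part from that choice, and the chance rate does not apply to it.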

How the results depend on the processing

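Under 19 other settings, 0 of the 190 values of the 10 members passed the threshold (smallest adjusted p 0.348), 30 had the other sign, and no log2 fold change exceeded 0.295 in size; the members thus had 0 calls under every setting run. The count of all genes past the threshold was 11 by edgeR, 348 by DESeq2, 66 by limma voom, 1 with the replicate block, 3 without XBS 2 and XBS 3, 0 without MOD 4 and XBS 5, and 4 to 15 without 1 library; the cause was not tested. The count of other list genes was 5, and 20, 1, 2, 0 and 4 to 6 by DESeq2, with the block, without those 2 pairs and without 1 library. With the block, the adjusted p was 0.101 for Klf5, 0.118 for Cyp4b1, 0.0842 for Per1 and for Klf15, and 0.158 for Nfkbia. The log2 fold changes with the block were -0.61, -0.67, -1.10, -0.85 and -0.83 in that order. Equal replicate numbers share only a number: the deviations of same-numbered libraries correlated from -0.12 to 0.33, and 2 of 10 libraries correlated best with their own number. The median r over member pairs was 0.48 without the 2 farthest libraries. Under upper quartile scaling, the log2 fold change took the other sign for Abca3 (0.0074), Lpcat1 (4.4e-05) and Cebpa (0.0048). Under limma voom, the log2 fold change took the other sign for Abca3 (0.061), Lpcat1 (0.11), Cpm (0.012), Il11ra1 (-0.017) and Cebpa (0.036). With the replicate block, the log2 fold change took the other sign for Lpcat1 (0.0086). Without XBS 2 and XBS 3, the log2 fold change took the other sign for Napsa (-0.0043), Lyz2 (-0.0022), Dram1 (-0.022), Pam (0.064) and Fam92a (0.028). Without MOD 4 and XBS 5, the log2 fold change took the other sign for Sftpb (0.033), Abca3 (0.082), Lamp3 (0.056), Slc34a2 (0.039), Lpcat1 (0.029), Etv5 (0.018), Slc24a4 (0.11), Cpm (0.038), Pkib (0.023), Eif4g3 (-0.019), Il11ra1 (-0.060) and Cebpa (0.041). Without 1 library each, the sign changed for Sftpb (-0.15 to 0.039), Sftpc (-0.23 to 0.0066), Abca3 (-0.099 to 0.095), Napsa (-0.037 to 0.26), Lamp3 (-0.11 to 0.073), Slc34a2 (-0.16 to 0.086), Lpcat1 (-0.074 to 0.13), Etv5 (-0.16 to 0.016), Lyz2 (-0.021 to 0.30), Slc24a4 (-0.17 to 0.093), Cpm (-0.11 to 0.089), Dram1 (-0.019 to 0.26), Pkib (-0.088 to 0.052), Pam (-0.19 to 0.063), Eif4g3 (-0.0025 to 0.11), Il11ra1 (-0.072 to 0.085), Fam92a (-0.16 to 0.050) and Cebpa (-0.089 to 0.097). The median log2 fold change of all genes stayed within 0.02 of 0 in all settings. The lowest count of a member was 930, so counting error was small beside the spread between libraries.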
